A study of Mus musculus with 10 samples.

Results

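Cytosolic ribosomal protein genes were followed across 5 lines of the mouse osteosarcoma cell line K7M2. Members were the gene names that begin with Rpl or Rps and go on as ribosomal protein names do, without the Rps6k kinases and without pseudogenes named with -ps, and with at least 10 counts summed over the 10 libraries. The rule gave 84 of the 41743 names in the count tables. Of these, 46 encode proteins of the large subunit and 31 proteins of the small subunit, called here the 77 core members. Another 6 are paralogs or like genes (Rpl7l1, Rpl22l1, Rpl36al, Rpl39l, Rps27l and Rps27rt). The remaining name, Rps19bp1, encodes a nucleolar protein that binds Rps19 and is no ribosomal protein. Rpl10l and Rpl3l matched the name pattern and had 0 counts, so they were left out. Just above the minimum stood Rps27rt, with 151 counts in all, and next to it Rps19bp1, with 7922. All 84 members passed the filter on low counts and lie in protein-coding genes of GENCODE M21.

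The ribosome carries out protein synthesis and is built from ribosomal RNA and a fixed set of proteins, most of them needed at 1 copy per subunit. The mRNAs of these proteins are among the most abundant of growing cells. Most begin with a short pyrimidine tract next to the cap, through which mTOR and LARP1 control their translation together. Free Rpl5 and Rpl11 bind Mdm2 when assembly fails, which links the family to p53.

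Poly-A RNA was sequenced from parental K7M2 cells and from 4 lines made from them, in which CRISPR/Cas9 had disrupted the gene of ezrin, the protein that ties the cell membrane to actin. The derived lines all carried the disrupted gene and were stably transfected with ezrin T567A (the regulatory threonine made unable to take up phosphate), ezrin T567D (a stand-in for the phosphorylated threonine), wild-type ezrin or an empty vector, with 2 libraries per line. The 4 derived lines share the tag col3 in their names, which reads as a common disrupted clone, each construct stood in 1 stable line, and the parental cells were not transfected. Whether the 2 libraries of a line stem from separate cultures is not stated in the labels, and p-values then reflect no more than the spread of these libraries, which may be technical. In bulk RNA, fewer cells that express a gene and less RNA per cell cannot be told apart.

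Libraries held 14679424 to 18230763 counts. Of 9 markers of osteoblasts and osteosarcoma, 7 reached 1 CPM in every library, and their summed level was 5231 and 5207 CPM in T567A, 5140 and 5545 in T567D, 4664 and 4550.3 in wild type, 4545 and 4483 in empty vector, and 7334 and 7188 in parental cells. Markers of lymphocytes summed to at most 0.114 CPM, those of epithelium to at most 0.501 and those of endothelium to at most 2.37. Of 6 macrophage markers, 3 or 4 reached 1 CPM in a library, with sums between 1214 and 1724 CPM and Adgre1 at 0 counts in all 10 libraries and Ptprc at 0 in 8 of them. Csf1r alone held most of these sums, with a mean of 1619 CPM in T567A, 1345 in T567D, 1384 in wild type, 1572 in empty vector and 1179.5 in parental cells. Their part in the results was not tested. Ezr, the disrupted gene, stood at 248 and 253 CPM in T567A, 204 and 181 in T567D, 230.4 and 233 in wild type, 72.4 and 72.9 in empty vector and 164 and 166 in parental libraries. Here and below CPM are counts scaled by TMM-adjusted library totals, changes are log2 fold changes ± standard error (SE), and a gene is called at a Benjamini-Hochberg adjusted p under 0.05 over all 12595 genes tested, by edgeR's quasi-likelihood F-test.

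Promoter sequences are shown first for 10 of the members with large changes, so that members on 1 chromosome and members that moved in opposite directions can be read side by side. The sequences are those of RefSeq on GRCm38.p6, 5′ to 3′ on the transcript's strand, with 60 bases before the start site and 25 from it on. Capitals mark CCGGAAG (the core of ETS family sites with its flanks), GGGCGG (the GC box), TATAAA or CACGTG on either strand, and, on the transcript's strand, pyrimidine runs of a C followed by at least 7 letters C or T that lie within 25 bases of the start.
Rps4x, chrX:102189367-102189451, minus strand: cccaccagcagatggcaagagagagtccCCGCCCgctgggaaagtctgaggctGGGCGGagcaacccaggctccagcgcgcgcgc
Rpl36a, chrX:134585594-134585678, plus strand: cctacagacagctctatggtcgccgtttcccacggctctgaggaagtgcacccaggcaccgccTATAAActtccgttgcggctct
Rpl39, chrX:37085198-37085282, minus strand: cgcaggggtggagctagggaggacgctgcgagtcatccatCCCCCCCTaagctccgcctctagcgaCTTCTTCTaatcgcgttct
Rpl10, chrX:74270756-74270840, plus strand: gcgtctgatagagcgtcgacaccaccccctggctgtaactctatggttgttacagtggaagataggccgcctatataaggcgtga
Rps21, chr2:180257319-180257403, plus strand: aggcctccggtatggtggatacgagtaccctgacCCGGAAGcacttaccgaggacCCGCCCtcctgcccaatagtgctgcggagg
Rps3a1, chr3:86142644-86142728, minus strand: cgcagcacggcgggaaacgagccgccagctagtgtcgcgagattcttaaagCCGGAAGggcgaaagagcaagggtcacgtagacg
Rps24, chr14:24490618-24490702, plus strand: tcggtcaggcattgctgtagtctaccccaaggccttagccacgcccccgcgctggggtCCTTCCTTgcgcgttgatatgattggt
Rpl19, chr11:98026650-98026734, plus strand: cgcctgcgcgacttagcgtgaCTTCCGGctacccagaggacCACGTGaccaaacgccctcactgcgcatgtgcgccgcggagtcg
Rpl15, chr14:18270962-18271046, minus strand: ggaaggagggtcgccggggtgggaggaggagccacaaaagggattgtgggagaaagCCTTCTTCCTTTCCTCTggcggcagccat
Rpl13a, chr7:45128721-45128805, minus strand: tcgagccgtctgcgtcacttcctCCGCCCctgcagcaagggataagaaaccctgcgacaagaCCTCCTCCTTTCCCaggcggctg

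RefSeq promoters of 300 bases were matched for 64 of the 84 members. A pyrimidine run stood near the start in 46.9% of the members' promoters and in 15.3% of all 27025 RefSeq promoters. CCGGAAG stood in 39.1% of the members' promoters and in 9.12% of all, and GGGCGG in 60.9% and 35.9%. The shares of GATGGCGG, a YY1 motif, were 4.69% among members and 1.74% among all, those of CACGTG 7.81% and 7.24%, and those of TATAAA 9.38% and 14.2%. Some of these motifs can overlap, and a match describes letters, not a bound site. Among the members shown, the run in Rpl15, CCTTCTTCCTTTCCTCT, spans the start site, and that in Rpl13a, CCTCCTCCTTTCCC, begins just after it. Of the 4 members on chromosome X, 1 had a pyrimidine run within these limits.

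Levels per length, in the deposited RPKM, spread widely within the family. Rplp1, an acidic protein of the stalk that recruits elongation factors, had the highest mean over the 10 libraries, 2629 RPKM. It was followed by Rps15 with 1414, Rpl23a with 1148, Rps3a1 with 919 and Rpl4 with 887 RPKM. At the low end stood Rpl7l1 at 37.2, Rpl35a at 34.0, Rpl22l1 at 25, Rps18 at 23.5 and Rps27rt at 2.17 RPKM. These ranks depend on gene lengths that are not named. Rpl35a had 22050 counts over the 10 libraries, more than the 21502 of Rpl26, which stood at 81.0 RPKM. Rps18 had 10592 counts over the 10 libraries, while Gm10260, whose transcript is 99.1% identical over 545 bases, had 137263. Rps18-ps5 and Rps18-ps4, taken as copies by name alone, had 32228 and 4571, and the 3 together held 94.3% of the sum. Rpl10 had 92583 counts beside 58643, or 38.8% of the sum, at its copy Rpl10-ps3, whose transcript is 100% identical over 740 bases. Values of these members are uncertain on that account, and sums with the copies are given where they differ.

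The family as a whole took a larger share of the RNA in parental cells than in any derived line. Members held 4.89% and 5.03% of all counts in T567A, 5.09% and 5.03% in T567D, 4.93% and 4.98% in wild type, 5.25% and 4.98% in empty vector, and 6.22% and 6.04% in parental libraries. All 8 derived libraries, at 4.89% to 5.25%, lay below both parental ones. The counts of the large-subunit members divided by those of the small-subunit members gave 1.62 and 1.61 in T567A, 1.53 and 1.56 in T567D, 1.57 and 1.56 in wild type, 1.54 and 1.55 in empty vector, and 1.497 and 1.497 in parental libraries. The T567A libraries were highest and the parental libraries lowest in this ratio. Over the 5 lines, 71 of the 84 members were called, against 78% of all tested genes. Among the 77 core members, parental cells had the highest mean CPM for 63, T567A for 9, empty vector for 4 and T567D for 1. The lowest mean stood in T567A for 29, in wild type for 24, in T567D for 15 and in empty vector for 9.

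**Figure D1:**
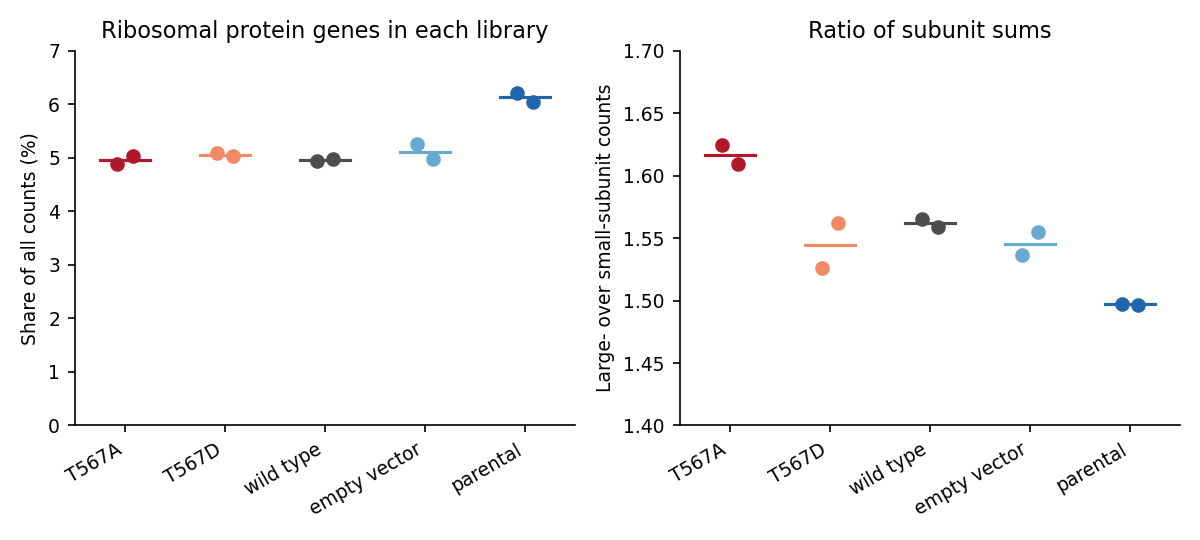
The left panel plots the share of all counts (%) held by the 84 ribosomal protein genes, the right panel the large-subunit counts divided by the small-subunit counts, for each library of the 5 lines (points) with the mean of each line (bars). Parental libraries, at 6.22% and 6.04%, lie above all others on the left, and T567A libraries, at 1.62 and 1.61, lie above all others on the right, where the axis does not start at 0.

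The empty-vector line was set against parental cells to ask what sets disrupted cells apart, although disruption, derivation and transfection cannot be told apart here. Ribosomal protein mRNAs were mostly lower in the empty-vector line: 58 of the 84 members fell, 1 rose and 25 were not called. Of all tested genes, 54.6% were called in this comparison, 27.4% higher and 27.2% lower. The median log2 fold change was -0.21 over the members and 0.00 over all tested genes. Both subunits took part, with 34 of 46 large-subunit and 22 of 31 small-subunit members lower and none higher. Most changes were small. On their own counts, 7 of the 77 core members were called and differed by more than 1.5-fold, and 1 by more than 2-fold. Of all 12595 tested genes, 2996 were called and differed by more than 1.5-fold, and 1663 by more than 2-fold. Without empty-vector replicate 3, the lower of the empty-vector libraries in its share of member counts, 35 members were lower in place of 58.

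The 4 core members on chromosome X had the largest falls. Rps4x, a small-subunit protein (chromosome X, 102184941 to 102189394), stood at 662 and 662 CPM in empty vector, against 1475 and 1379.7 CPM in parental libraries (log2 fold change -1.11 ± 0.058, adjusted p = 8.7e-13). Rpl36a of the large subunit (chromosome X, 134585654 to 134588062) had 139 and 125 CPM in empty vector and 274 and 247 in parental libraries (log2 fold change -0.98 ± 0.073, adjusted p = 2.6e-10). For Rpl39, which lines the exit tunnel of the nascent chain (chromosome X, 37082520 to 37085402), the values were 205 and 180.4 CPM in empty vector and 368 and 355 in parental libraries (log2 fold change -0.91 ± 0.076, adjusted p = 2.3e-09). In each of these members the libraries of both lines stood far apart. Counted without near-identical copies, Rps4x was the only core member lowered by more than 2-fold.

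Rpl10, a large-subunit protein that joins late in assembly (chromosome X, 74270812 to 74273135), reached 477 and 441 CPM in empty vector and 843 and 769 in parental libraries (log2 fold change -0.81 ± 0.07, adjusted p = 2.5e-09). Summed with its copy it reached 725 and 711 CPM in empty vector and 1465 and 1488 in parental libraries, also a fall of more than 2-fold. The groups did not overlap on either count, and neither did they, in either direction, for 78.4% of all tested genes. The other 369 tested genes of chromosome X had a median log2 fold change of -0.77, with 295 called lower and 25 higher. The median of the 4 members was -0.94. The T567A, T567D and wild-type lines also had less Rps4x than parental cells, with 646 and 669 CPM in T567A, 771 and 725 in T567D and 632 and 640.0 in wild type.

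**Figure D2:**
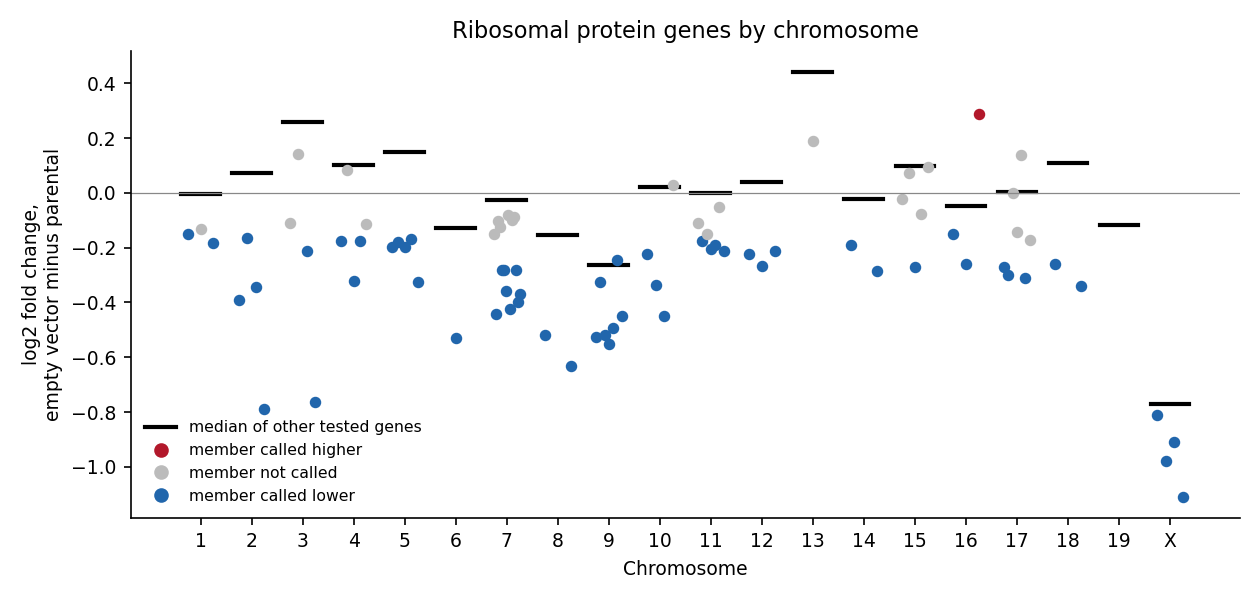
Each point is a member's log2 fold change, empty vector minus parental, placed by chromosome and coloured by its call; black bars give the median of the other tested genes of that chromosome, and Rps27rt, with 0 counts in parental libraries, is left out. The 4 members on chromosome X lie lowest, at or below that chromosome's median of -0.77, and on most chromosomes the members lie below the bar.

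The family's decrease was not limited to chromosome X. Of the 73 core members elsewhere, 52 were lower and none higher, with a median of -0.21. On chromosome 9, 7 of 8 members were lower, with a median of -0.47. Of the other 673 tested genes there, 360 were lower, with a median of -0.26. On chromosome 5 all 5 members were lower, with a median of -0.20. Of the other 801 tested genes there, 121 were lower, with a median of 0.15. Fewer members were lower on some chromosomes, with 1 of 5 on chromosome 15 and 3 of 7 on chromosome 17. Of the 77 core members, 75 lay below the median of the other tested genes of their chromosome, with a median difference of -0.25 on the log2 scale. Members also varied with their neighbours. Across the 77 core members, the log2 fold change and the median of the other tested genes within 5 Mb had a Pearson r of 0.80 and a Spearman rho of 0.54. This is a description over genes that share the same libraries, and the 4 members on chromosome X form its low end.

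Outside chromosome X, Rps21 and Rps3a1 had the largest falls. Rps21, a protein of the small subunit (chromosome 2, 180257377 to 180258445), had 226 and 196 CPM in empty vector, against 352 and 377 CPM in parental libraries (log2 fold change -0.79 ± 0.069, adjusted p = 3.2e-09). The 72 other tested genes within 5 Mb of it had a median of -0.55. Rps3a1, a small-subunit protein near the exit of the mRNA channel (chromosome 3, 86137940 to 86142702), had 866 and 885 CPM in empty vector and 1526 and 1444 in parental libraries (log2 fold change -0.76 ± 0.058, adjusted p = 3.8e-10). Its 123 tested neighbours within 5 Mb had a median of 0.05, so that only Rps21, of these members, had neighbours with a lowered median. In both members every empty-vector library lay below both parental libraries, where 78.4% of all tested genes had no overlap in either direction.

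The stalk proteins, which recruit translation factors, were all called lower, with log2 fold changes of -0.32 ± 0.059 for Rplp0, -0.55 ± 0.061 for Rplp1 and -0.28 ± 0.091 for Rplp2. The call of Rplp2 was lost in 7 of 24 alternative settings, with adjusted p of up to 0.16. Rplp1 stood at 1319 and 1205 CPM in empty vector and 1913 and 1788 in parental libraries. Rpl4, which forms part of the tunnel wall, stood at 1854 and 1812 CPM in empty vector and 2684 and 2570.2 in parental libraries (log2 fold change -0.52 ± 0.054, adjusted p = 4.8e-08). Rpsa, a small-subunit protein also known as the laminin receptor, had 2409.8 and 2297 CPM in empty vector and 3151 and 3269 in parental libraries (log2 fold change -0.45 ± 0.058, adjusted p = 1.1e-06). Rps15 of the decoding region changed by -0.45 ± 0.063 (adjusted p = 3.6e-06) and Rps3 at the mRNA entry by -0.28 ± 0.064 (adjusted p = 0.00089).

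Rpl5 and Rpl11, the Mdm2-binding pair, changed by -0.18 ± 0.055 (adjusted p = 0.0088) and -0.17 ± 0.062 (adjusted p = 0.021). Rps6, the substrate of the S6 kinases, changed by -0.18 ± 0.062 (adjusted p = 0.021). The calls of Rpl5, Rpl11 and Rps6 were lost in 3, 8 and 7 of 24 alternative settings. Rpl3 of the peptidyl transferase centre had 995 and 963 CPM in empty vector and 983 and 1004 in parental libraries and was not called (log2 fold change -0.02 ± 0.055), nor was Rpl38 (-0.05 ± 0.076), which in mouse embryos is needed to translate a set of Hox mRNAs. Rps18 was not called on its own counts (0.14 ± 0.18), with 60.0 and 82.1 CPM in empty vector and 63.0 and 66.0 in parental libraries. Summed with its copies it had 1139 and 1112 CPM in empty vector and 1287 and 1279.8 in parental libraries and fell by 0.19 on the log2 scale (adjusted p = 0.017), so that its direction depends on the copies.

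**Figure D3:**
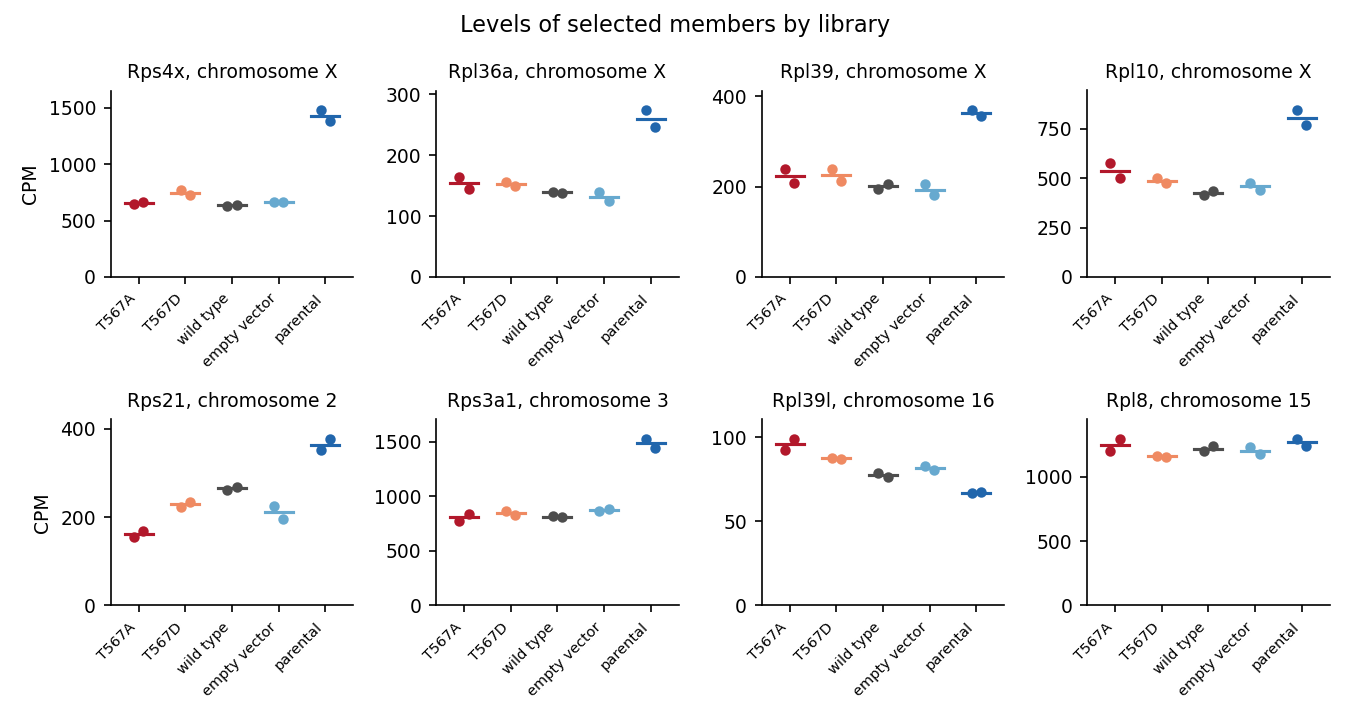
Levels in CPM, on linear axes from 0, for 8 members in each library (points) with the mean of each line (bars). The 4 members on chromosome X, Rps21 and Rps3a1 are highest in parental libraries, Rpl39l is lowest there, at 66.5 and 67.3 CPM, and Rpl8, which encodes a large-subunit protein at the peptidyl transferase centre and was not called, ranges little.

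Core proteins whose names the rule does not take were also lower in the empty-vector line. Fau, which encodes a ubiquitin-like fusion with Rps30, changed by -0.35 ± 0.062 (adjusted p = 6.1e-05), and Rack1, a scaffold on the small subunit, by -0.40 ± 0.065 (adjusted p = 2.3e-05). The lists drawn up around the family are read against the 27.2% of all tested genes called lower and the 27.4% called higher. Some lists share genes, and Tsr2 counts both in ribosome biogenesis and among the chaperones. Of 100 tested genes of ribosome biogenesis, 57 were lower and 11 higher, with a median of -0.21. Las1l (-1.07), which cuts pre-ribosomal RNA, the GTPase gene Gnl3l (-0.90) and Tsr2 (-0.87), the chaperone of Rps26, were among the most lowered, and Nop14 (0.90), of the small-subunit processome, rose. All 3 of these lowered genes lie on chromosome X, where the tested genes outside the family had a median of -0.77. Among 36 other mRNAs with the same kind of pyrimidine start, 17 were lower and 2 higher, with a median of -0.16. Eef2 (-0.74) and Eef1a1 (-0.44), the elongation factors, were among them. Of 25 chaperones and importers of ribosomal proteins, 14 were lower and 4 higher, with a median of -0.19. Of 36 genes of RNA polymerase I and III, 8 (22.2%) were lower, below the share over all genes, and 6 higher, with a median of -0.11. The 78 genes of the mitochondrial ribosome had 23 lower (29.5%), near the share over all genes, and 12 higher, with a median of -0.09.

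Wild-type ezrin was set against the empty vector to ask what the return of ezrin changes in disrupted cells. Few members were called: 3 were higher and 3 lower, against 15.6% of all tested genes called, 8.25% higher and 7.36% lower. The median was -0.09 over the members and -0.01 over all tested genes, and 62 of the 77 core members had a log2 fold change below 0. Rps21 had 261 and 269 CPM in wild type, against 226 and 196 CPM in empty vector (log2 fold change 0.33 ± 0.069, adjusted p = 0.0023). Both wild-type libraries lay above both empty-vector libraries and below both parental libraries. Libraries of wild type and empty vector did not overlap, in either direction, for 61.5% of all tested genes. Rpl38 stood at 235 and 229 CPM in wild type and 217 and 177 in empty vector (log2 fold change 0.23 ± 0.076, adjusted p = 0.039), and Rpl19 at 923 and 902 in wild type and 828 and 776 in empty vector (log2 fold change 0.19 ± 0.061, adjusted p = 0.043). Rpl11 had 408 and 397 CPM in wild type and 482 and 471 in empty vector (log2 fold change -0.24 ± 0.062, adjusted p = 0.0093), and Rpl15 739 and 743 in wild type and 895 and 824 in empty vector (log2 fold change -0.21 ± 0.06, adjusted p = 0.017). The other tested genes within 5 Mb had medians of 0.30 for Rpl38, 0.22 for Rpl19 and 0.15 for Rps21. For Rpl11 and Rpl15 these medians were -0.07 and -0.09. Rpl38 and Rpl19 lie on chromosome 11, where 198 of the other 995 tested genes were called higher and 32 lower. Leaving out 1 library moved the counts of called members to between 0 and 3 higher and between 0 and 6 lower. No member was higher without empty-vector replicate 3, and none was lower without empty-vector replicate 2 or either wild-type replicate.

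Ezrin T567A was set against wild-type ezrin to ask what a residue that cannot be phosphorylated changes. Members moved in both directions: 17 rose, 12 fell and 55 were not called, against 39.6% of all tested genes called, 20.4% higher and 19.1% lower. The median was 0.03 over the members and 0.00 over all tested genes. Large-subunit members had 10 higher and 5 lower, small-subunit members 4 higher and 7 lower, and the 6 paralogs 3 higher and 0 lower. The split depended on the scaling, with 14 higher and 20 lower under upper-quartile or total-count scaling and 27 higher and 11 lower with offsets for GC content. The lower count was 7 without wild-type replicate 3 or T567A replicate 2, and 19 without T567A replicate 3.

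Rps21, which also fell in the empty-vector line, had the largest fall. It stood at 155 and 167 CPM in T567A, against 261 and 269 CPM in wild type (log2 fold change -0.71 ± 0.07, adjusted p = 6.3e-08), and at 223 and 235 in T567D. The T567A libraries were the lowest of all 10 for this gene. Between T567A and wild type, 69.2% of all tested genes had no overlap, in either direction. The 72 tested neighbours of Rps21 had a median of 0.01 here, against -0.55 in the comparison with parental cells. The call of Rps21 held in all 24 alternative settings.

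Other members that fell have varied places in the ribosome. Rpl15, an early-assembling large-subunit protein, had 556 and 593 CPM in T567A and 739 and 743 in wild type (log2 fold change -0.37 ± 0.06, adjusted p = 5.3e-05). Rpl37a had 292 and 274.6 CPM in T567A and 348 and 366 in wild type (log2 fold change -0.33 ± 0.062, adjusted p = 0.0002). In both, the T567A libraries lay below all others, where 69.2% of all tested genes had no overlap between T567A and wild type. Rpl13a, which in human monocytes leaves the ribosome to silence inflammatory mRNAs, had 766 and 869.7 CPM in T567A and 1031 and 1029 in wild type (log2 fold change -0.33 ± 0.066, adjusted p = 0.00042). Rps19, mutated in Diamond-Blackfan anaemia in people, had 413 and 425 CPM in T567A and 519 and 519 in wild type (log2 fold change -0.31 ± 0.059, adjusted p = 0.00026). These 4 calls held in all 24 alternative settings.

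The members that rose most were Rpl23a, Rpl19, Rpl23, Rps24 and Rpl21. Rpl23a, at the tunnel exit where nascent chains meet the signal recognition particle, had 1179.9 and 1416 CPM in T567A and 949.9 and 911 in wild type (log2 fold change 0.48 ± 0.075, adjusted p = 5.1e-05). Rpl19, which helps to bridge the subunits, had 1288 and 1202 CPM in T567A and 923 and 902 in wild type (log2 fold change 0.45 ± 0.061, adjusted p = 6.3e-06). Rpl23, its near neighbour on chromosome 11, had 1064 and 1056 CPM in T567A and 792 and 769 in wild type (log2 fold change 0.44 ± 0.06, adjusted p = 5.6e-06). For all 3 the T567A libraries were the highest of the 10, where 69.2% of all tested genes had no overlap between T567A and wild type. Rps24 of the small subunit had 884 and 862 CPM in T567A and 617 and 669.9 in wild type (log2 fold change 0.44 ± 0.059, adjusted p = 5.1e-06), and Rpl21 had 585 and 528 in T567A and 399 and 434 in wild type (log2 fold change 0.42 ± 0.079, adjusted p = 0.00035). Rpl19 (98026710 to 98030492) and Rpl23 (97777527 to 97782437) lie within 5 Mb of each other, and their tested neighbours within 5 Mb had medians of 0.08 and 0.08 in this comparison. The 110 neighbours of Rpl23a, also on chromosome 11, had a median of 0.29, those of Rps24 of 0.10 and those of Rpl21 of -0.12. Among the members that fell, the medians were 0.07 for Rpl15, -0.07 for Rpl37a, -0.11 for Rpl13a and -0.20 for Rps19.

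Members named for their roles were called in part. Rpl5 had 926 and 917 CPM in T567A and 771 and 781 in wild type (log2 fold change 0.25 ± 0.055, adjusted p = 0.0012), while its partner Rpl11 changed by -0.09 ± 0.062 and was not called. Rpl7 rose by 0.26 ± 0.054 and Rps27 by 0.39 ± 0.07, with adjusted p of 0.00073 and 0.00017. Rpl10 rose by 0.34 ± 0.07 (adjusted p = 0.00055) on its own counts, but summed with its copy it had 733 and 753 CPM in T567A and 671 and 707 in wild type and was not called. The stalk members Rplp0, Rplp1 and Rplp2 were not called, with 0.08 ± 0.059, -0.01 ± 0.061 and 0.02 ± 0.091. Rps6 was at 0.05 ± 0.062 and Rps4x at 0.05 ± 0.058, and neither was called.

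Base composition and the mitochondrial share moved beside these changes. Over the 84 members, the log2 fold change and the GC content of the longest transcript had a Spearman rho of -0.33, and over 11590 other tested genes a rho of -0.42. The members that rose had a median GC content of 48.5% and those that fell of 52.9%. Mitochondrially encoded genes took 1.90% and 1.44% of counts in T567A and between 0.844% and 1.33% in the other 8 libraries. Their part in the members' changes was not tested beyond the offsets for GC content. In the same lists, read against 20.4% of all tested genes called higher and 19.1% lower, 25 of 100 ribosome biogenesis genes were higher and 12 lower, among them Npm1 (0.44), which encodes nucleophosmin, and Nmd3 (0.42), the export adaptor of the large subunit. Of the 78 mitochondrial ribosome genes 25 were higher and 7 lower, led by Mrpl39 (0.94) and Mrpl47 (0.77). Of the 36 other transcripts listed for a pyrimidine start 5 were higher and 5 lower. Of 25 chaperones and importers 5 were higher and 3 lower, and of 36 genes of RNA polymerase I and III 6 and 5. These are shares near or below those over all genes.

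Ezrin T567D was set against wild-type ezrin to ask what a substitute for the phosphorylated residue changes. Of the 84 members, 1 was higher and 0 lower, against 1.34% of all tested genes called, 0.818% higher and 0.524% lower. Rps4x stood at 771 and 725 CPM in T567D, against 632 and 640.0 CPM in wild type (log2 fold change 0.23 ± 0.058, adjusted p = 0.045). Both T567D libraries lay above both wild-type libraries and well below both parental ones. Libraries of T567D and wild type did not overlap, in either direction, for 43.8% of all tested genes. The call of Rps4x was lost in 15 of 24 alternative settings, with adjusted p of up to 0.39, and the other 369 tested genes of chromosome X had a median of 0.09. The median over all members was 0.04 and over all tested genes 0.00. Rps21 had 223 and 235 CPM in T567D and 261 and 269 in wild type, a log2 fold change of -0.21 ± 0.069 that was not called (adjusted p = 0.17).

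**Figure D4:**
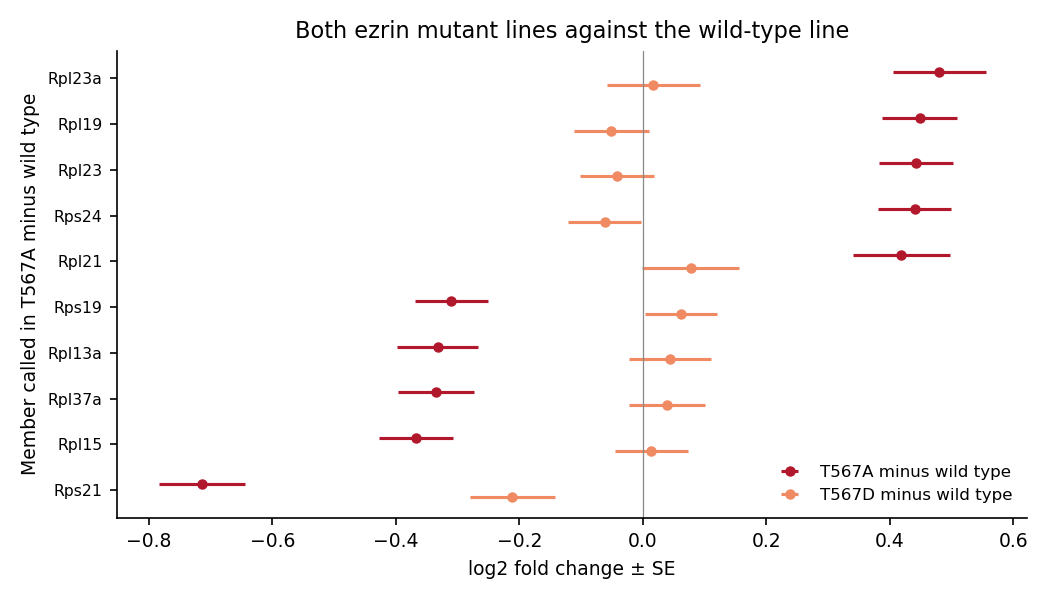
Log2 fold change ± SE against the wild-type line for 10 of the 29 members called in T567A minus wild type, the 5 that rose most and the 5 that fell most, with the T567A value (red) above the T567D value (orange) for each; both comparisons share the wild-type libraries. T567A values run from -0.71 for Rps21 to 0.48 for Rpl23a, while no T567D value of these 10 members passed the test.

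The direct test of T567A against T567D, which shares the T567A libraries with the comparison above, called 16 members higher and 21 lower. Of all tested genes, 44.1% were called, 22.5% higher and 21.6% lower. Rps24 had 884 and 862 CPM in T567A, against 633 and 599.5 CPM in T567D (log2 fold change 0.50 ± 0.059, adjusted p = 7.5e-07). Rpl19 had 1288 and 1202 CPM in T567A and 889 and 873 in T567D (log2 fold change 0.50 ± 0.061, adjusted p = 1.3e-06), and Rpl23 1064 and 1056 in T567A and 756 and 760.0 in T567D (log2 fold change 0.48 ± 0.06, adjusted p = 1.4e-06). In these 3 members the T567A libraries lay above both T567D libraries without overlap. The libraries of these lines did not overlap, in either direction, for 69.7% of all tested genes. Rps21 (-0.50 ± 0.07), Rpl15 (-0.38 ± 0.06), Rpl13a (-0.38 ± 0.066), Rpl37a (-0.37 ± 0.062) and Rps19 (-0.37 ± 0.059) had the largest falls, with adjusted p of at most 9.6e-05. Rpl41, the smallest ribosomal protein, stood at 779.7 and 834 CPM in T567A and 963 and 1126 in T567D (log2 fold change -0.37 ± 0.09, adjusted p = 0.004), a call lost in 2 of 24 alternative settings. Of the small-subunit members 10 were lower and 3 higher, and of the large-subunit members 11 and 11.

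The paralogs did not follow their partner genes evenly. Rpl39l, a paralog of the X-linked Rpl39 known for its expression in male germ cells, was the single member higher in the empty-vector line, with 83.0 and 80.3 CPM in empty vector, against 66.5 and 67.3 CPM in parental libraries (log2 fold change 0.29 ± 0.065, adjusted p = 0.00082). It rose in T567A as well, with 92.5 and 98.9 CPM in T567A and 78.7 and 76.2 in wild type (log2 fold change 0.31 ± 0.064, adjusted p = 0.00071). As RPKM, Rpl39l stood at 66.8 and 81.8% of Rpl39 in T567A, 63.6 and 70.7% in T567D, 69.5 and 64.0% in wild type, 69.9 and 76.8% in empty vector and 31.2 and 32.7% in parental libraries. Every derived library lay above both parental ones in this ratio. The size of such RPKM ratios, here and for the other paralogs, depends on gene lengths that are not named. Their change between lines does not.

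Rpl36al, an autosomal copy of the X-linked Rpl36a, had 221 and 200.1 CPM in T567A and 174 and 157 in wild type (log2 fold change 0.35 ± 0.066, adjusted p = 0.00029), and 172 and 168 in empty vector and 201 and 197 in parental libraries (log2 fold change -0.22 ± 0.066, adjusted p = 0.0065). Its RPKM was 164 and 169% of that of Rpl36a in T567A, 136 and 136% in T567D, 152 and 139% in wild type, 151 and 165% in empty vector and 89.7 and 97.9% in parental libraries. In RPKM, Rpl36al thus lay below Rpl36a in parental libraries and above it in every derived one. Which gene stands higher depends on the unnamed gene lengths behind the RPKM, while the change of the ratio between lines does not.

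Rps27l, a p53 target, had 273 and 290.0 CPM in T567A, against 222 and 216 CPM in wild type (log2 fold change 0.36 ± 0.071, adjusted p = 0.00042), and stayed at 44.7% to 52.1% of Rps27 in all 10 libraries. Rpl22l1 lay at 21.0% to 30.4% of Rpl22 and Rpl7l1 at 10.9% to 14.8% of Rpl7, and neither was called in any of the 5 comparisons. Rps27rt, a retrogene of Rps27, had 0 and 30 counts in T567A, 24 and 49 in T567D, 0 and 23 in wild type, 25 and 0 in empty vector and 0 and 0 in parental libraries, and was not called. A count of 0 allows up to 0.174 and 0.175 CPM in the parental libraries, by counting error only.

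**Figure D5:**
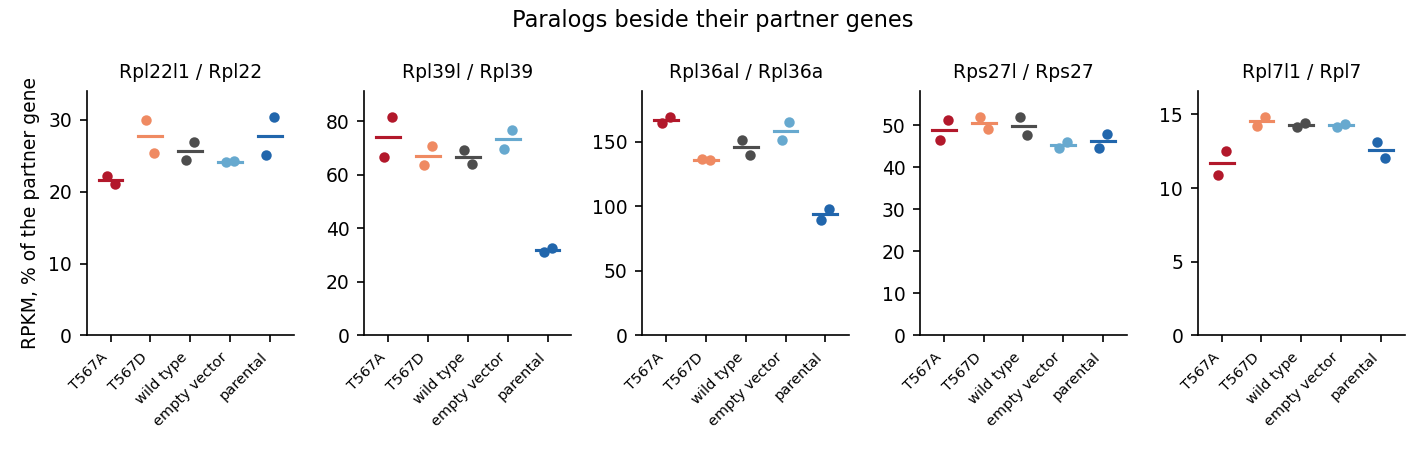
RPKM of 5 paralogs as a percentage of the RPKM of the partner gene in each library (points), with the mean of each line (bars) and axes from 0. Rpl39l and Rpl36al, whose partners lie on chromosome X, are lower relative to them in parental libraries, at 31.2 and 32.7% and 89.7 and 97.9%, than in every derived library.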

How the data were processed

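Strand-specific libraries of poly-A RNA, 2 for each of 5 lines, were made with dUTP and read on DNBSEQ instruments, per the labels' protocols. The authors deposited a raw count table and an RPKM table for each library, with gene names. The submitters' processing notes name the build GRCm38. The tools for mapping and counting, the gene lengths behind the RPKM and the use of strand in counting stay unnamed there. Lines were taken from the labels.

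Members and gene lists were chosen with earlier results of these data known. The test on counts was that of edgeR 4.0.16 under R 4.3.3 (filterByExpr with a minimum count of 10 and a minimum total of 15, TMM scaling, robust quasi-likelihood fit of 5 line means over all 10 libraries, 5 residual degrees of freedom, two-sided, Benjamini-Hochberg adjustment over 12595 genes). DESeq2 1.42.0 and limma 3.58.1, on log2(RPKM + 1) and log2(RPKM + 0.1), served as alternatives, beside other scalings, filters, thresholds, subsets of libraries, sums with copies and GC-content offsets. The fit was tested on simulated data. The totals of 14679424 to 18230763 counts limit the precision of low genes.

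Copies were names outside the rule whose GENCODE M21 transcripts matched a member's at 95% identity or more over at least 150 bases and 50% of its length (BLAST 2.17.0), and names with -ps. Promoters were matched by symbol. Named members were those chosen for paralogy or function, the 5 called members with the largest increase and decrease in each comparison, and the 5 highest and lowest in RPKM. From each list, up to 4 called genes with the largest changes could be named. Members named for another reason, such as Rpl8, were chosen after their values were seen. Some genes that these rules name are not reported here. Figures were drawn with matplotlib 3.10.9.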

Additional observations from a re-analysis of the deposited data

How the results depend on the processing

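The median log2 fold change of the members moved by less than the spread between libraries under every alternative run, although for T567A minus wild type it was just below 0 under upper-quartile and total-count scaling, and 40 of 76 calls of named members held in all alternatives. For empty vector minus parental, 2 members in place of 1 were higher under total-count scaling, no filter, a filter of 5 CPM in 2 libraries, only the libraries compared, limma on log2(RPKM + 1) or log2(RPKM + 0.1), and GC-content offsets. The 58 lower became 35 under limma on log2(RPKM + 1) with no filter. For wild type minus empty vector, limma on RPKM called 1 higher with each pseudocount and filter, and 1, 1 and 0 lower with log2(RPKM + 1), log2(RPKM + 0.1) and no filter. An adjusted p under 0.01 left 1 higher and 1 lower, the libraries compared alone gave 12 lower, and GC-content offsets 11. For T567A minus wild type, upper-quartile and total-count scaling each gave 20 lower and GC-content offsets 27 higher. For T567D minus wild type, 0 members were higher under RLE or upper-quartile scaling, TMM without the members, limma with each setting, or an adjusted p under 0.01, and 1 was lower with only the libraries compared (Rps18) or GC-content offsets (Rps21). For T567A minus T567D, an adjusted p under 0.01 left 13 lower. The cause was not tested.

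Leaving out 1 library at a time gave 1 to 2 higher and 35 to 63 lower for empty vector minus parental, 0 to 3 and 0 to 6 for wild type minus empty vector, 13 to 20 and 7 to 19 for T567A minus wild type, 0 to 1 and 0 for T567D minus wild type, and 11 to 19 and 12 to 22 for T567A minus T567D, where the 12 came without T567D replicate 1. The single library left in a line is then assumed to vary like the others.

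Some directions reversed. Summed with its copies, Rps18 was at -0.189 for empty vector minus parental, and its own counts were above 0. With GC-content offsets, T567A minus wild type was 0.213 for Rpl38, 0.191 for Rplp1 and 0.21 for Rps15, and T567A minus T567D was 0.191 for Rpl38 and 0.18 for Rps15. Both of these alternatives were chosen after seeing the data.

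No shared shift of same-numbered libraries was seen. The difference of replicate 3 from the other library of its line correlated between lines at -0.0995 to 0.0705. That other library bears the number 1 in some lines and 2 in others, so this does not settle whether the numbers pair the libraries. With the replicate block, empty vector minus parental had 2 higher and 46 lower, wild type minus empty vector 2 and 2, T567A minus wild type 13 and 8, T567D minus wild type 0 and 0, and T567A minus T567D 11 and 14.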

Other observations

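Lists of genes that act around the ribosome were also counted. Of all tested genes, 27.4% were called higher and 27.2% lower in empty vector minus parental, and 20.4% and 19.1% in T567A minus wild type, and several of the counts here lie near those shares. In empty vector minus parental, 14 of 39 tested genes of the TOR pathway and LARP1 control were higher and 12 lower. Rheb (1.14), the GTPase that activates mTOR, was among the risers, and Castor2 (-0.93) among the fallers. In T567A minus wild type, 9 were higher and 11 lower, with Castor2 at -1.24 and Sesn3 (0.68), a sestrin that restrains mTOR. Of 24 tested genes of the p53 response, 7 were higher and 6 lower in empty vector minus parental, with Eda2r, on chromosome X, at -0.92 and Zmat3 at 0.49. T567A minus wild type gave 8 and 4, with the death receptor gene Fas at 0.82 and the cell cycle inhibitor Cdkn1a at -0.43. Of 28 genes of ribosome quality control and ribosomal protein ubiquitination, 3 were higher and 8 lower in empty vector minus parental, where Edf1, which senses collided ribosomes, was at -0.99. In T567A minus wild type the counts were 6 and 6, with Ascc3, a helicase that splits collided ribosomes, at 0.77. All of these named genes passed the test.

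The genes whose log2 CPM was most like the mean of the 77 core members over the 10 libraries were Ewsr1 (Pearson r 0.991), Cryaa (0.990), Sh3bp5l (0.989), Ftsj1 (0.988) and Rbm3 (0.987). The parental libraries stand apart from the other 8 in all of these, so that r mostly compares those 2 groups. Ewsr1 stood at 314 ± 2.8 CPM in T567A, 312 ± 4.5 in T567D, 310.3 ± 4.7 in wild type, 325 ± 4 in empty vector and 400.2 ± 11 in parental cells (SD, n = 2 libraries each). Cryaa stayed under 1 CPM in every line.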
